A study of Mus musculus with 6 samples.

Results

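Genes of mitochondrial fatty acid oxidation were examined in sinoatrial node (SAN) tissue of HCN4FEA and WT mice. The set was defined by name and held Slc25a20, Cpt1b, Cpt2, Acadvl, Acadl, Acadm, Hadha, Hadhb, Acaa2 and Etfdh. A gene was read only from a probe set to which the platform annotation gives exactly 1 symbol, and 9 of the 10 genes had such a probe set, 1 each, among 22180 genes measured in this way. Cpt1b, the muscle form of the outer carnitine palmitoyltransferase, lies only on a probe set shared with other symbols and has no value here. None of the 9 genes passed an unadjusted p of 0.05 in HCN4FEA against WT tissue. Of all 25341 probe sets tested, 6.1% passed it by limma. The log2 fold changes of the 9 genes lay between -0.18 and 0.09.

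HCN4FEA mice are a global knockin line made by homologous recombination. Point mutations in the C-linker and the cyclic nucleotide-binding domain of HCN4, the main pacemaker channel of the SAN, make the channel insensitive to cAMP. The mutations leave the Hcn4 transcript in place, so its level does not test the genotype labels. HCN4FEA tissue (3 arrays) and WT tissue (3 arrays) came from adult mice labelled as male, kept on a mixed background of C57BL/6N and a further inbred strain, with no drug treatment in the labels. The methods give 3 mice per genotype and do not say in words that each array held 1 of them. The p-values measure only the spread between these arrays. Both groups are whole dissected tissue, in which fewer cells of a type and less RNA per cell cannot be told apart.

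Long-chain fatty acids are the main fuel of the adult heart. They are activated to acyl-CoA outside the mitochondrion and carried through its membranes as carnitine esters. Inside, each turn of beta-oxidation runs through an acyl-CoA dehydrogenase, a hydratase, a hydroxyacyl-CoA dehydrogenase and a thiolase, and releases acetyl-CoA for the tricarboxylic acid cycle. The electrons pass to the respiratory chain through NADH and through the electron transfer flavoprotein. In heart muscle many of these genes are known targets of the nuclear receptors PPAR and ERR and their coactivator PGC-1.

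The 6 arrays had medians between 2.44 and 2.51 on the log2 scale and the Pearson r of array pairs, taken over genes that are no replicates of each other, lay between 0.983 and 0.991. Cardiomyocyte markers were bright on every array, with list means from 9.16 to 9.34 in HCN4FEA and from 9.31 to 9.59 in WT tissue, and the SAN markers, Hcn4 among them, had list means from 4.80 to 5.22 in HCN4FEA and from 4.77 to 5.32 in WT tissue. Neuron markers set HCN4FEA 3 (list mean 5.55) and WT 1 (4.93) apart from the other arrays, which lay between 2.5 and 2.88. Against the label, Xist, which female cells transcribe to silence an X chromosome, lay between 8.97 and 9.43 on all arrays, while none of 3 Y-linked genes exceeded 1.62. As a guide to background, 1405 probe sets of odorant and vomeronasal receptors had a 99th percentile of 2.53.

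The stretches before the start sites of Acadm, Cpt2 and the Hadha and Hadhb pair are shown because these are the genes whose HCN4FEA and WT arrays did not overlap, with Hadhb as the head-to-head partner of Hadha; they were picked after the values were seen. The sequences are from RefSeq on GRCm38.p6, 5′ to 3′. Acadm is at chr3:153944644-153944893 on the minus strand and Cpt2 at chr4:107923590-107923839 on the minus strand, each 250 bases that end at the base before the start. Hadha and Hadhb are transcribed away from each other, and the 272 bases between their starts are chr5:30154981-30155252, given on the plus strand. Capitals mark the core site of many nuclear receptors (AGGTCA), an NRF1 core (GCATGCGC) or a CCAAT box, each searched on both strands.
Acadm: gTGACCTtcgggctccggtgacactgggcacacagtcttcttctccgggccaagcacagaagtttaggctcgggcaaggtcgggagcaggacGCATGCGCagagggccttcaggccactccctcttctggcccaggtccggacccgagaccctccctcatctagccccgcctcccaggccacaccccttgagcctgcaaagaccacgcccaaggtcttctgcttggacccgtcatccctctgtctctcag
Cpt2: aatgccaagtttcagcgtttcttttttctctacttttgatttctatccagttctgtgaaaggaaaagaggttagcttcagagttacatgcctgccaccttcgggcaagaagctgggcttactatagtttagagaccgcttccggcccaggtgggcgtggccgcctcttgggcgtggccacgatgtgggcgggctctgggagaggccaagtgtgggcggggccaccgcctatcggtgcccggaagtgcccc
Hadha and Hadhb: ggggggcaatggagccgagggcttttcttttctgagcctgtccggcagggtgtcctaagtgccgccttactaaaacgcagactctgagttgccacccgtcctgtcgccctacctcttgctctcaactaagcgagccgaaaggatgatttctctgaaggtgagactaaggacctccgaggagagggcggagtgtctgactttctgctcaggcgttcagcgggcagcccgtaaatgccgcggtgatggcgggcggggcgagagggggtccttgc

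Windows of 250 bases before the start were found for 8 of the 10 genes, all but Cpt1b and Acaa2. AGGTCA stood in the windows of Acadm and Acadvl, 2 of 8, against 14% of 32851 mouse windows of the same length. In Acadm it reads against the direction of the gene and lies at the 5′ end of the printed stretch. GCATGCGC was found in Acadm and Etfdh, also 2 of 8, against 2.26% of all windows, and CCAAT in Etfdh alone, 1 of 8 against 33.8%. The ERR motif TCAAGGTCA (0.387% of windows) and the direct repeat AGGTCANAGGTCA (0.0335%), both of which contain AGGTCA, were in none of the 8. A match is a description of the letters, and no match says only that they are not in these windows.

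The carnitine shuttle was represented by Slc25a20 and Cpt2. Slc25a20 (probe set 17521875), the carnitine-acylcarnitine carrier of the inner membrane, had log2 signals of 5.39, 5.23 and 5.39 on the HCN4FEA arrays, against 5.34, 5.61 and 5.25 on the WT arrays. The groups overlapped, with the highest value on WT 2 and the lowest on HCN4FEA 2. The log2 fold change (HCN4FEA minus WT) was -0.06 ± 0.13 (SE), with a 95% confidence interval of -0.36 to 0.23, a limma adjusted p of 0.961 and an exact two-sided permutation p of 0.8.

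Cpt2 (probe set 17427961), the inner-membrane carnitine palmitoyltransferase that returns the acyl group to CoA, had signals of 6.95, 6.96 and 7.01 in HCN4FEA tissue, against 7.15, 7.26 and 7.04 in WT tissue. All 3 HCN4FEA arrays lay below all 3 WT arrays, with 0.03 log2 units between the nearest arrays. Its fold change was the lowest of the 9 genes, at -0.18 ± 0.11 (SE; interval -0.42 to 0.07, adjusted p = 0.876 from limma; exact permutation p = 0.1, the smallest that 3 against 3 arrays can give). The means were 6.97 ± 0.035 in HCN4FEA and 7.15 ± 0.106 in WT tissue (SD, n = 3 each).

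The first step of the cycle is made by acyl-CoA dehydrogenases of different chain length. Acadvl (probe set 17265129), the very long-chain enzyme, had signals of 7.88, 7.70 and 7.71 in HCN4FEA tissue, against 7.72, 7.94 and 7.99 in WT tissue. HCN4FEA 1 lay among the WT values and WT 1 among the HCN4FEA values. The log2 difference was -0.12 ± 0.12 (SE; interval -0.40 to 0.16, adjusted p = 0.915 from limma; exact permutation p = 0.2).

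Acadl (probe set 17223903), the long-chain enzyme, had signals of 9.08, 9.03 and 9.09 in HCN4FEA tissue, against 9.0, 9.16 and 8.99 in WT tissue, so that the HCN4FEA arrays lay inside the WT range. Its difference was 0.01 ± 0.10 (SE; interval -0.23 to 0.26, adjusted p = 0.993 from limma; exact permutation p = 0.8), and the sign turned under several alternatives given in the closing section.

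Acadm (probe set 17411323), the medium-chain enzyme, had signals of 9.57, 9.63 and 9.44 in HCN4FEA tissue, against 9.65, 9.81 and 9.67 in WT tissue. No HCN4FEA array reached the lowest WT array, but the gap between the nearest ones was 0.024, smaller than the SD of either group. The group means were 9.55 ± 0.098 in HCN4FEA and 9.71 ± 0.088 in WT tissue (SD, n = 3 each). The difference of -0.16 ± 0.11 (SE) had an interval of -0.42 to 0.09 and an adjusted p of 0.883 from limma (exact permutation p = 0.1).

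The long-chain hydratase, hydroxyacyl-CoA dehydrogenase and thiolase activities sit on the mitochondrial trifunctional protein, whose alpha subunit is encoded by Hadha and whose beta subunit by Hadhb. Hadha (probe set 17446643) signals were 9.08, 9.07 and 9.06 in HCN4FEA tissue, against 9.10, 9.22 and 9.11 in WT tissue. The groups did not overlap, by 0.019 log2 units, and the HCN4FEA arrays were nearly level, with an SD of 0.01 against 0.067 in WT tissue. Hadha differed by -0.07 ± 0.10 (SE; interval -0.30 to 0.16, adjusted p = 0.936 from limma; exact permutation p = 0.1).

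Hadhb (probe set 17435748), which shares its upstream stretch with Hadha, had signals of 2.79, 2.90 and 3.25 in HCN4FEA tissue, against 2.72, 3.03 and 2.93 in WT tissue. These values lie just above the receptor percentile of 2.53, so the probe set carries little signal over background, and the difference in brightness from Hadha is between probe sets and is no comparison of transcript levels. HCN4FEA 3 was the highest array and WT 1 the lowest. Hadhb had the widest interval of the genes, with a difference of 0.09 ± 0.15 (SE; interval -0.27 to 0.44, adjusted p = 0.951 from limma; exact permutation p = 0.7).

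Acaa2 (probe set 17351811), the thiolase that closes the cycle for medium and short chains, had signals of 9.74, 9.66 and 9.64 in HCN4FEA tissue, against 9.55, 9.79 and 9.59 in WT tissue. The HCN4FEA arrays lay within the WT range. The difference was 0.04 ± 0.11 (SE; interval -0.22 to 0.30, adjusted p = 0.979 from limma; exact permutation p = 0.6).

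Etfdh (probe set 17406091), the dehydrogenase that hands electrons from the electron transfer flavoprotein to ubiquinone, had signals of 8.32, 8.34 and 8.32 in HCN4FEA tissue, against 8.31, 8.36 and 8.41 in WT tissue. The groups overlapped, with the 3 HCN4FEA arrays inside the WT range. Of the 9 genes it had the narrowest interval, with a difference of -0.04 ± 0.10 (SE; interval -0.27 to 0.19, adjusted p = 0.974 from limma; exact permutation p = 0.4).

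**Figure D1:**
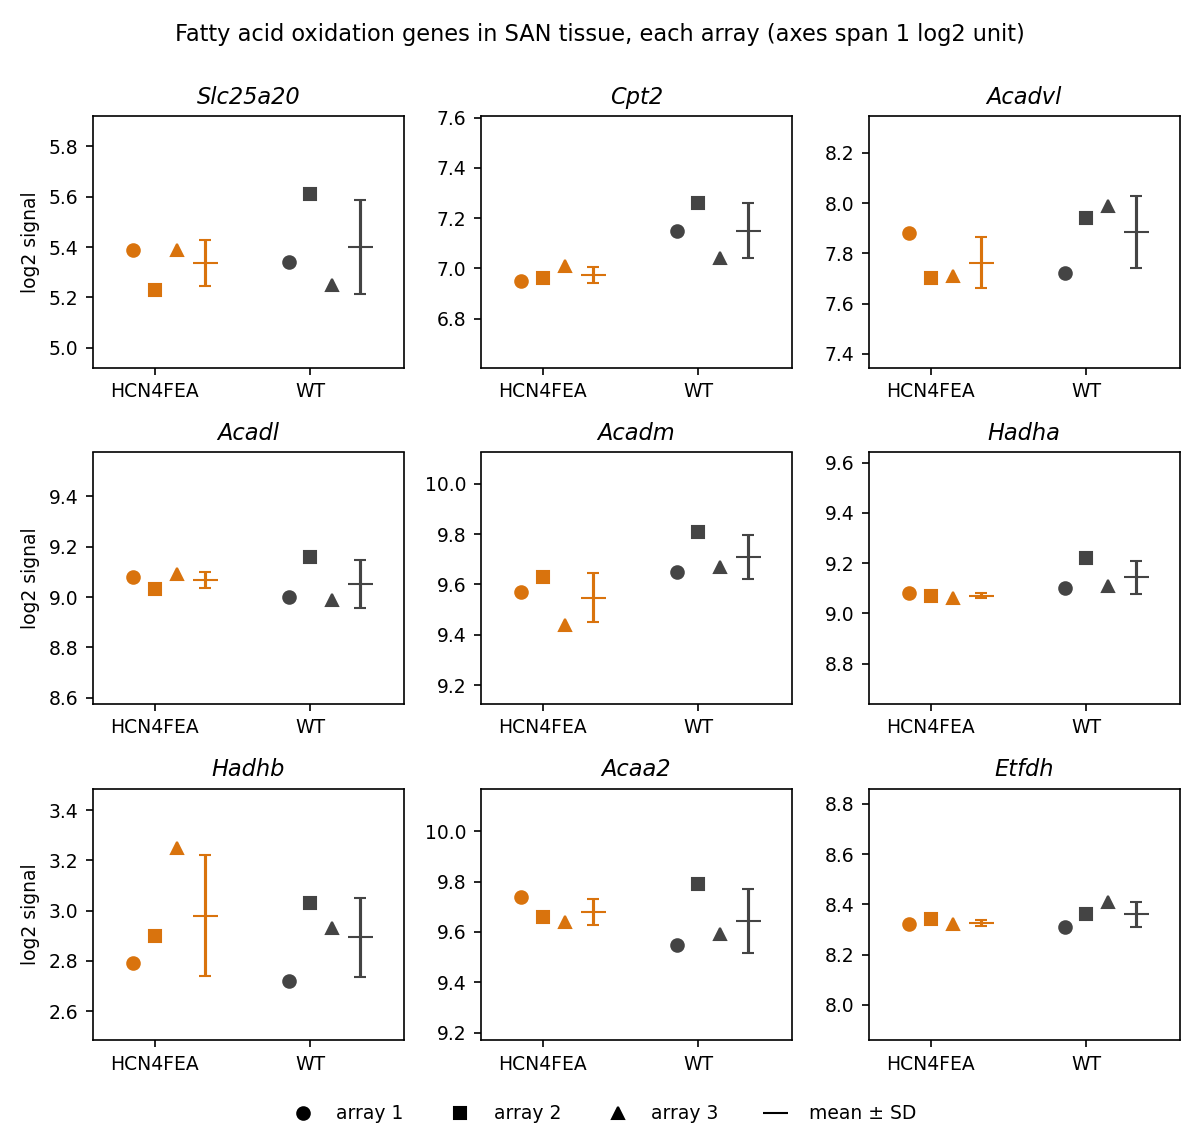
RMA log2 signal (y axis) of the 9 measured fatty acid oxidation genes, 1 panel per gene, with 1 point per array (HCN4FEA left, WT right) and the group means and SD. The groups are apart only for Cpt2, Acadm and Hadha, by 0.03, 0.024 and 0.019 log2 units between the nearest arrays.

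Of the 9 genes, 0 passed an unadjusted p of 0.05 by limma, by the methods' t-test or by the test with equal variances. Across all 25341 probe sets tested, 2.71% passed by limma as lower and 3.4% as higher, and 0 passed after Benjamini-Hochberg adjustment, the smallest adjusted p being 0.724 (limma gave 1547 an unadjusted p under 0.05 and the methods' t-test gave it to 1021). For 3 of the 9 genes, 33.3%, every HCN4FEA array lay below every WT array, against 4.92% of all probe sets and 4.03% of the 8702 with a mean log2 signal of at least 4. No gene showed the opposite order, which 6.31% of all probe sets did. The fold changes were negative for 6 genes and positive for 3, while 46.98% of all probe sets and 41.17% of the brighter ones were negative. The median over the 9 genes was -0.06, against 0.01 over all probe sets and 0.03 over the brighter ones.

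The intervals bound the size of any difference in signal. For all 9 genes the 95% confidence interval lay within 1.5-fold in either direction, as it did for 74.7% of all probe sets and 78.9% of the brighter ones. The lowest bound was 0.746-fold, for Cpt2, and the highest was 1.36-fold, for Hadhb. The Hadhb probe set carries little signal over background, so its interval does not bound the difference in transcript level. Differences in signal up to those bounds are compatible with these arrays.

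**Figure D2:**
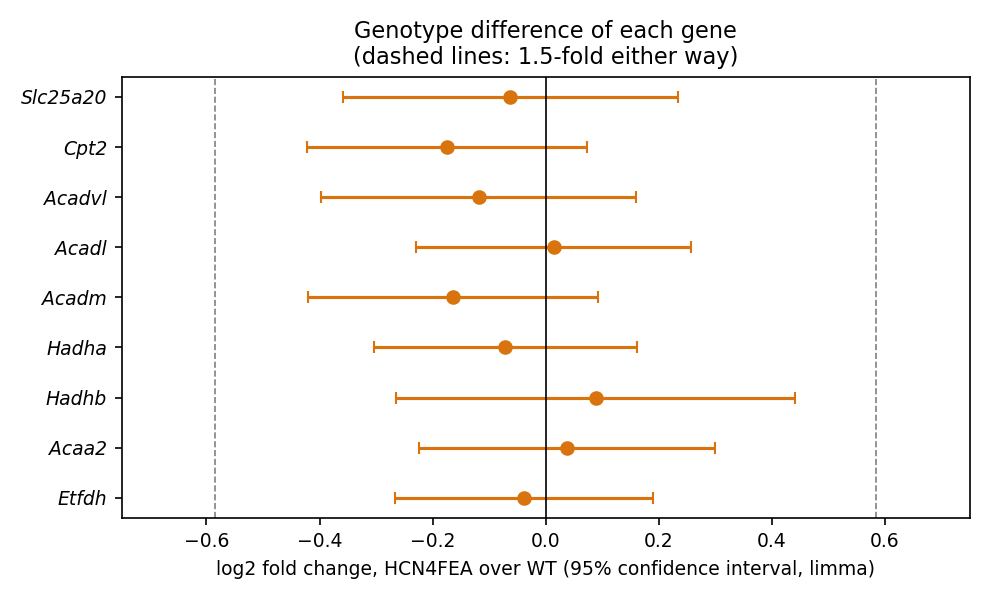
Log2 fold change, HCN4FEA minus WT (x axis), of each fatty acid oxidation gene (y axis) with its 95% confidence interval from limma; the outer lines mark 1.5-fold. Every interval spans 0 and stays inside the 1.5-fold lines, from -0.42 at the low end to 0.44 at the high end.

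Replicate arrays lay close together for these genes. The within-group SD ranged from 0.036 to 0.203 log2 units with a median of 0.093, and 8 of the 9 were under 0.155, the median of the brighter probe sets. The exception was the dim Hadhb.

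Among the arrays WT 2 stood apart for these genes. It had the highest value for 6 of the 9 genes and the lowest for none, and its mean over the genes was 7.80, against 7.64, 7.61 and 7.66 on the HCN4FEA arrays and 7.62 and 7.66 on the other WT arrays. The median deviation from each gene's mean was 0.114 on WT 2 and between -0.035 and -0.008 elsewhere. Without WT 2 the median fold change was -0.03, and Slc25a20 turned to 0.04. This was not particular to the oxidation genes. Among the lists described below, WT 2 also had the highest mean for other beta-oxidation (6.70), uptake and activation (7.13) and carnitine and malonyl-CoA genes (5.94). The same held for PPAR targets (3.81) and peroxisomal genes (4.32). It did not hold for the tricarboxylic acid cycle, respiratory chain, PPAR and ERR regulators or fatty acid synthesis.

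**Figure D3:**
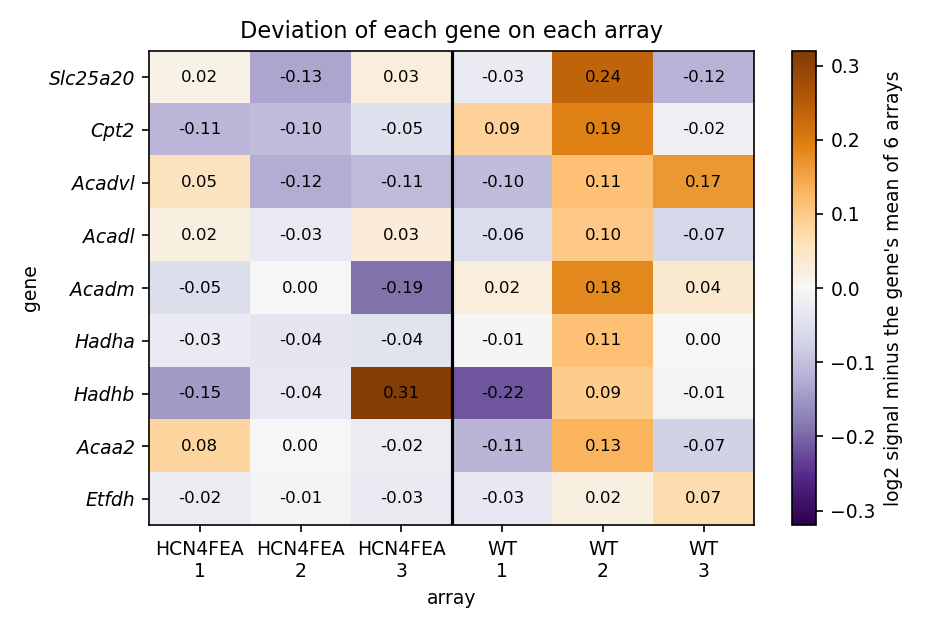
Log2 signal of each fatty acid oxidation gene (rows) on each array (columns, HCN4FEA left and WT right) as the deviation from the gene's mean over 6 arrays, in log2 units. WT 2 is above the mean for every gene, with a median deviation of 0.114.

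The other enzymes of the mitochondrial pathway were read from lists. Of 13 further beta-oxidation genes, 0 passed an unadjusted p of 0.05 by limma or the methods' t-test, 11 had negative fold changes and the median was -0.04. Of 10 measured genes of fatty acid uptake and activation, 0 passed, with a median of -0.05. Cd36, the fatty acid translocase of the plasma membrane, was among the brightest of them, with signals of 9.25, 9.38 and 9.52 in HCN4FEA tissue, against 9.43, 9.49 and 9.61 in WT tissue, and a difference of -0.13 (interval -0.40 to 0.15). The tricarboxylic acid cycle (0 of 17, median -0.09) and the respiratory chain (0 of 23, median -0.05) likewise had no gene past the threshold by limma, and for all of their measured genes the interval lay within 1.5-fold.

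Malonyl-CoA, made by acetyl-CoA carboxylases, inhibits carnitine palmitoyltransferase 1 and so sets the entry of fatty acids. Of 11 carnitine and malonyl-CoA genes, 1 passed as lower, 0 passed as higher, and the median was -0.15. Acaca, the cytosolic carboxylase of lipid synthesis, had signals of 5.14, 4.65 and 5.03 in HCN4FEA tissue, against 6.04, 5.42 and 5.15 in WT tissue, a difference of -0.60 (interval -1.15 to -0.05, adjusted p = 0.805 from limma). All HCN4FEA arrays were below the WT arrays, by 0.019 at the nearest. Acaca missed the threshold when HCN4FEA 2, HCN4FEA 3, WT 1 or WT 2 was left out, with differences of -0.46, -0.65, -0.35 and -0.66, and by the methods' t-test.

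Acacb, the carboxylase of the mitochondrial surface in muscle, had signals of 5.74, 5.91 and 5.60 in HCN4FEA tissue, against 6.21, 6.09 and 5.88 in WT tissue, and HCN4FEA 2 lay above WT 3. Acacb narrowly did not pass, with a difference of -0.31 (interval -0.62 to 0.00, unadjusted p = 0.0505 from limma). It passed in 7 of 17 alternatives, among them without HCN4FEA 2 (-0.39), without WT 3 (-0.40), with quantile normalization repeated (-0.35) and with the replicate block. It did not pass by the methods' t-test.

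Of 14 regulators of the PPAR and ERR pathway, 1 passed as lower and 1 as higher by limma, with a median of -0.02. Rxrg, a retinoid X receptor that pairs with PPARs, had signals of 4.14, 3.63 and 3.58 in HCN4FEA tissue, against 4.28, 4.37 and 4.30 in WT tissue (difference -0.53, interval -0.91 to -0.16, adjusted p = 0.778 from limma). The WT arrays were nearly level and all above the HCN4FEA arrays, and Rxrg passed with any 1 array left out but not by the methods' t-test.

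Ppard, the PPAR isoform expressed widely including in heart, had signals of 4.88, 4.98 and 4.57 in HCN4FEA tissue, against 4.42, 4.44 and 4.50 in WT tissue (difference 0.36, interval 0.05 to 0.66, adjusted p = 0.789 from limma). The groups did not overlap. Ppard no longer passed without HCN4FEA 1 (0.32), HCN4FEA 2 (0.27), WT 1 (0.34) or WT 2 (0.35), nor by the methods' t-test. The coactivator Ppargc1a was bright and overlapped, with signals of 7.53, 7.94 and 7.40 in HCN4FEA tissue, against 7.57, 7.93 and 7.49 in WT tissue (difference -0.04, interval -0.45 to 0.37).

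Known PPAR target genes were not called in either direction, 0 of 11, with a median of 0.00, but 5 of the 11 had a mean below the receptor percentile of 2.53. Pdk4, the kinase that turns off pyruvate dehydrogenase and is a classic target, had signals of 8.63, 9.21 and 9.28 in HCN4FEA tissue, against 8.52, 9.24 and 8.88 in WT tissue. These overlapped and differed by 0.16 (interval -0.37 to 0.69).

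Peroxisomes shorten very long and branched fatty acids before the mitochondrion takes them over. Of 11 peroxisomal genes measured, 2 passed as lower and 1 as higher by limma, with a median of -0.14. Ehhadh, the peroxisomal bifunctional enzyme, had signals of 3.27, 2.92 and 2.63 in HCN4FEA tissue, against 3.34, 3.48 and 3.50 in WT tissue. These values lie near the receptor percentile of 2.53, so the Ehhadh probe set carries little signal over background. Abcd3, a fatty acid transporter of the peroxisome membrane, had signals of 5.95, 5.99 and 6.0 in HCN4FEA tissue, against 6.2, 6.38 and 6.24 in WT tissue. For both genes the HCN4FEA arrays lay below the WT arrays. The differences were -0.50 (interval -0.89 to -0.11) for Ehhadh and -0.29 (-0.54 to -0.05) for Abcd3.

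Amacr, the racemase that prepares branched fatty acids, was the gene that was higher, with signals of 3.97, 3.99 and 3.63 in HCN4FEA tissue, against 3.02, 3.24 and 3.39 in WT tissue (difference 0.64, interval 0.30 to 0.99, adjusted p = 0.724 from limma). Amacr and Ehhadh had means under 4, so the alternative limited to brighter probe sets did not hold them. Amacr passed with any 1 array left out and by the methods' t-test. Abcd3 also passed by the methods' t-test but not by limma without HCN4FEA 1 (-0.28), HCN4FEA 2 (-0.30) or WT 2 (-0.24), and Ehhadh did not pass without HCN4FEA 3 (-0.34) or WT 3 (-0.47) or by the methods' t-test.

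Fatty acid synthesis, the opposite branch of the pathway, had the lowest list median, -0.34, among the lists described above and the oxidation genes. Of 14 genes measured, 5 passed as lower and 0 as higher by limma, against 0 of 9 for the oxidation genes. Of all probe sets, 2.71% passed as lower and 3.4% as higher. The difference between the lists was not tested. Fasn, the fatty acid synthase, had signals of 7.03, 5.95 and 6.87 in HCN4FEA tissue, against 8.11, 7.24 and 7.25 in WT tissue (difference -0.92, interval -1.68 to -0.16, adjusted p = 0.788 from limma). HCN4FEA 2 was the lowest array and WT 1 the highest, and without them Fasn missed the threshold, at -0.59 and -0.63.

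Thrsp, a lipogenic protein, had signals of 6.29, 5.53 and 5.86 in HCN4FEA tissue, against 6.72, 6.38 and 6.47 in WT tissue (difference -0.63, interval -1.09 to -0.17, adjusted p = 0.778 from limma), and it passed with any 1 array left out. The others were Acaca, which both lists hold, Mlxipl (-0.63), which encodes the glucose-sensing factor ChREBP, and Dgat1 (-0.37), which makes triglyceride and was named after its value was seen. Leave-one-out counts for the list lay between 1, without WT 1, and 6, and 0 passed by the methods' t-test or with HCN4FEA 3 and WT 1 left out together.

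Mlxipl and Dgat1 each missed the threshold in 4 of 6 leave-one-out fits. Mlxipl did so without HCN4FEA 1 (-0.60), HCN4FEA 3 (-0.50), WT 1 (-0.45) or WT 2 (-0.61), and Dgat1 without HCN4FEA 2 (-0.31), HCN4FEA 3 (-0.37), WT 1 (-0.31) or WT 2 (-0.28).

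**Figure D4:**
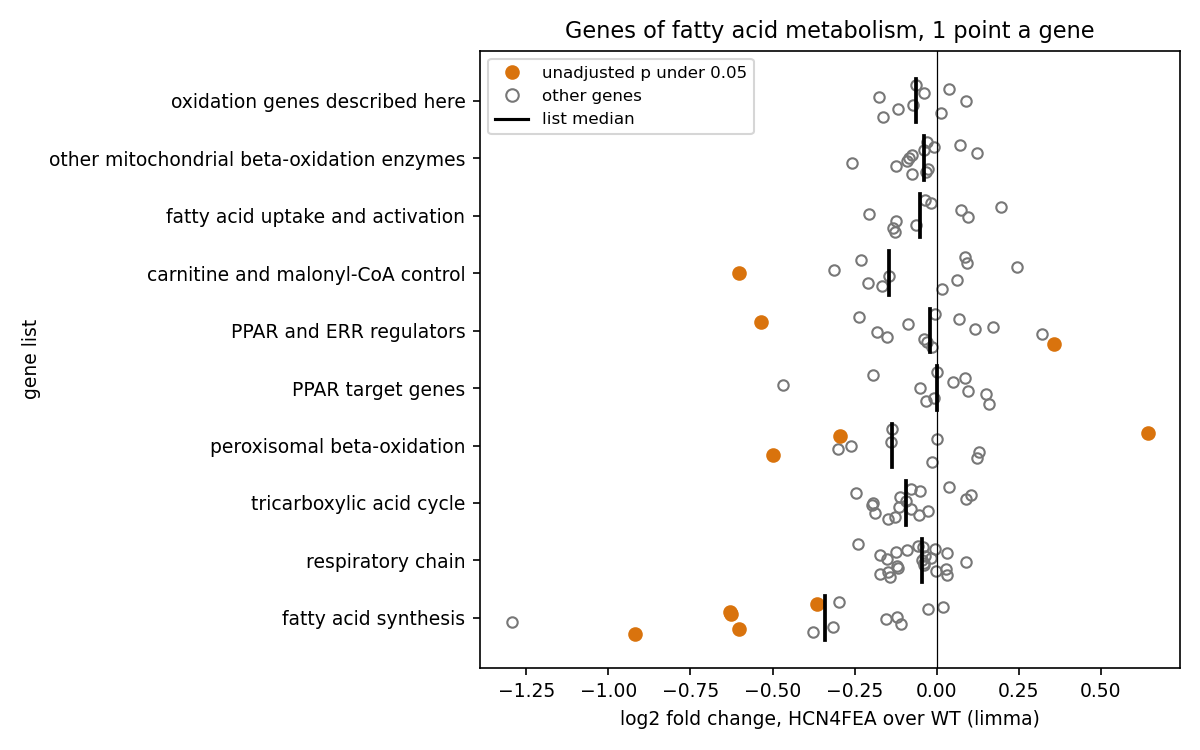
Log2 fold change, HCN4FEA minus WT (x axis), of every measured gene of each list (points, 1 row per list) with the list median as a bar. The median is -0.06 for the 9 oxidation genes and -0.34 for the 14 fatty acid synthesis genes.

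Markers of cell types rich in this metabolism were read beside these values. Of 8 measured white adipocyte markers, 3 passed as lower (Adipoq, Cidec and Plin1) and 0 as higher. The fold changes were negative for 6 of the 8. The brightest markers, Fabp4 (-0.06) and Pnpla2 (0.03), were nearly level. Which cells of the whole tissue gave the signal of Fabp4 and Pnpla2 was not tested, so they do not show that adipocyte content was level. The list mean ranged from 4.28 to 5.0 in HCN4FEA and from 5.27 to 5.45 in WT tissue, without overlap. Adipoq, an adipocyte hormone, had signals of 3.93, 2.82 and 3.63 in HCN4FEA tissue, against 4.81, 4.63 and 4.69 in WT tissue. It differed by -1.25 (interval -1.85 to -0.65, adjusted p = 0.724 from limma), but by the methods' t-test 0 of the 8 markers passed. The part of adipocyte content in the values of the oxidation and synthesis genes was not tested.

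Brown adipocytes oxidise fatty acids at a high rate. Of 8 brown adipocyte markers, 1 passed as lower and 0 as higher, with list means from 4.90 to 5.24 in HCN4FEA and from 5.15 to 5.52 in WT tissue. The fold changes were negative for 7 of the 8, while Dio2 went the other way (0.81). The brightest markers, Cox8b (-0.10) and Cox7a1 (-0.10), overlapped between the groups. Which cells of the whole tissue gave their signal was not tested, so they do not show that brown adipocyte content was level. Of the 8 markers, 2 had a mean below the receptor percentile. The gene that passed was Ucp1, the uncoupling protein that defines these cells. Its signals were 1.45, 1.78 and 2.03 in HCN4FEA tissue, against 4.60, 5.05 and 1.91 in WT tissue. All 3 HCN4FEA arrays and WT 3 were thus below the receptor percentile of 2.53, and only WT 1 and WT 2 were above it. The fitted difference of -2.10, which background signals enter, ranged from -3.07 (without WT 3) to -1.50 (without WT 2) and is no exact change in level. Ucp1 missed the threshold by limma without HCN4FEA 1 (-1.95), WT 1 (-1.73) or WT 2, and by the methods' t-test. WT 2 is also the array on which the oxidation genes were highest, while WT 1 had the lowest value for 3 of them; the part of these cells in the values was not tested.

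Of 12 cardiomyocyte markers 1 was lower and 0 higher. This was Myh7, the slow myosin heavy chain, with signals of 4.98, 4.54 and 4.33 in HCN4FEA tissue, against 6.43, 5.97 and 5.02 in WT tissue (difference -1.19, interval -1.98 to -0.40, adjusted p = 0.765 from limma). Myh7 did not pass by the methods' t-test or with equal variances. Set relative to the mean of the cardiomyocyte markers on each array, the median of the oxidation genes was 0.10 in place of -0.06, but the median was 0.0092 when Myh7 was left out of the reference. Relative to the respiratory chain genes it was 0.0063.

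Of 6 macrophage markers, 3 were higher (Cd163, Csf1r and Lyve1) and 0 lower, with list means from 6.28 to 6.49 in HCN4FEA and from 6.08 to 6.29 in WT tissue. Of 8 fast skeletal muscle markers, 2 passed as higher (Tnnt3 and Casq1) and 0 as lower, with means from 3.15 to 3.61 in HCN4FEA and from 2.72 to 3.24 in WT tissue. Of the 8 markers, 2 had negative fold changes and 2 had a mean below the receptor percentile. Myh4 (-0.25) was among both, and its HCN4FEA arrays all lay below the WT arrays. The endothelial, fibroblast, neuron and SAN lists had 0 genes past an unadjusted p of 0.05 by limma in either direction. Their part in the values of the oxidation genes was not tested.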

How the data were processed

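RNA of SAN tissue was hybridised to 6 Affymetrix whole-transcript mouse gene arrays, all of which were used. In Expression Console 1.0 the authors ran RMA, in which background is corrected, arrays are equalised by quantiles and each probe set gets a log2 signal; the log2 signals were taken as deposited. Their own test was run in Partek 6.5. The probe set identifiers match the annotation of a later array version than the methods name, and its genome build was not given in the sources used here.

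Of 41345 probe sets, 23521 have 1 symbol, 1820 have several and 16004 are unnamed here; the 25341 with a symbol were tested. HCN4FEA was compared with WT in limma 3.58.1 under R 4.3.3 with genotype as the only term (3.85 prior degrees of freedom), and p-values were adjusted by Benjamini-Hochberg over all probe sets tested. The threshold for counts was an unadjusted p of 0.05. The methods' t-test (unequal variances), equal variances, dim filters, scalings, array weights, a replicate block and leaving out arrays were the alternatives. Exact two-sided permutation tests over 3 against 3 arrays cannot go below 0.1. The number of arrays limits the precision.

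Genes listed in the text were every oxidation gene and, from each list, up to 4 with the lowest p and the 2 with the highest mean; others are marked. The brightest probe set stood for a gene. The oxidation genes and all lists were chosen with earlier results of these data known. Some genes of the lists were not analysed here, and counts are over those measured. Scripts were tested on simulated data. Python 3.11.15 with matplotlib 3.10.9 made the plots.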

Additional observations from a re-analysis of the deposited data

How the results depend on the processing

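The number of oxidation genes past an unadjusted p of 0.05 was 0 under every alternative run, and the lowest adjusted p of any of them was 0.677 (limma and the t-tests). Of 152 values of single oxidation genes under an alternative, 142 kept their direction and 10 turned, none of them past the threshold; the cause was not tested. Acadl (0.01) was at -0.0018 with arrays centred on their median, -0.0011 with quantile normalization repeated and -3e-04 with array weights. Without HCN4FEA 3 and WT 1 together, Acadl was at -0.021 and Hadhb at -0.13. With 1 array left out, Acadl ranged from -0.0154 (without WT 3) to 0.0684, Hadhb from -0.0462 (without HCN4FEA 3) to 0.183, Acaa2 from -0.0095 (without WT 1) to 0.112, and Slc25a20 from -0.137 to 0.0398 (without WT 2). The median over the oxidation genes, -0.06, ranged from -0.09 to -0.03 with 1 array left out, and was 0.10 relative to cardiomyocyte markers, 0.0092 relative to the same markers without Myh7 (an alternative chosen after seeing the data) and 0.0063 relative to respiratory chain genes.

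Probe sets past an unadjusted p of 0.05 numbered 1547, and 1303 to 2034 with 1 array left out, 1021 by the methods' t-test, 637 of those with a mean of at least 4 and 2445 over all probe sets. Deviations of arrays with equal numbers correlated weakly, at -0.049, 0.087 and -0.033. Only HCN4FEA 2 correlated best with the WT array of its own number. Low correlations cannot show whether or not the numbers stand for pairs. A fit with the replicate block called 1587 probe sets and 0 oxidation genes. Fatty acid synthesis genes past the threshold numbered 5, against 0 with equal variances, 0 by the methods' t-test and 6 with the replicate block. Precision was limited by 3 arrays per genotype, and for Hadhb also by signals near background. Any difference within the interval of a gene is compatible with these arrays.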
